A study of Bos taurus with 6 samples.

Results

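The Toll-like receptors were followed as a gene family in the lining of the cow uterus (Bos taurus endometrium), in cells sorted as side population (SP) or as main population (MP). Members were the genes whose symbol is TLR1 to TLR10. Of these 10 names 9 had a row among 34733 named genes, and TLR1 had none. RefSeq's gene list for ARS-UCD2.0 gives TLR1 as a synonym of both TLR6 and TLR10, so no row was assigned to it. The series holds 3 SP and 3 MP libraries, made from total RNA with an mRNA library kit. All came from healthy uteri in the luteal phase, taken at slaughterhouses, with no treatment or genotype that differs between groups. Stromal cells were freed with collagenase after the luminal epithelium had been removed, stained with the DNA dye Hoechst and, with propidium iodide, kept free of dead cells. SP and MP cells were told apart by the ability to pump the dye out, and verapamil, which inhibits such pumping, was used beside the dye. The deposited names carry the same 3 source numbers in both populations and the word micro in MP alone. The sources used here do not give its meaning, so any step it stands for and the population cannot be told apart. The labels do not say that replicates are separate animals, so the spread behind the p-values is that of these samples and could be technical.

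Toll-like receptors are membrane proteins that recognise molecules of microbes and, in some settings, of damaged cells. TLR2, TLR4, TLR5, TLR6 and TLR10 sit at the cell surface, where TLR4 with its partner LY96 binds bacterial lipopolysaccharide, TLR2 pairs with TLR1 or TLR6 to bind lipoproteins, and TLR5 binds flagellin. TLR3, TLR7, TLR8 and TLR9 sit in endosomes and bind nucleic acids: double-stranded RNA for TLR3, single-stranded RNA for TLR7 and TLR8, and unmethylated CpG DNA for TLR9. Signals pass through the adaptors MYD88 and TICAM1 to NF-kappaB and interferon regulatory factors. In the cow uterus, which bacteria commonly reach after calving, TLR4 of endometrial cells is known for the response to lipopolysaccharide.

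The files give FPKM, fragments scaled to transcript length and to the size of the library, and no counts. Steps of the low values gave a depth of 1.60 and 1.82 in SP replicates 2 and 3 and of 2.32, 3.17 and 1.98 in MP replicates 1 to 3, relative to 1 in SP replicate 1, so MP libraries were the deeper ones. Endothelial markers were higher in SP (11 of 12 passed) and macrophage and monocyte markers lower (10 of 11 tested passed, 5 of them with a direction fixed by the filter described below). Lower too were 6 of 6 tested T and NK cell markers (all 6 fixed), 4 of 5 of mast cells (2 fixed), 2 of 2 of dendritic cells (1 fixed), 2 of 3 of B and plasma cells (both fixed) and 5 of 8 of pericytes and smooth muscle. Stromal fibroblast markers, which fit the labelled source, were lower in SP (9 of 10, 2 of them fixed), with DCN at 141, 126 and 194 FPKM in SP replicates 1 to 3, against 6200.03, 3815 and 1635 FPKM in MP replicates 1 to 3. Epithelial markers were present in both populations and none of 10 passed. In bulk RNA, fewer cells of a type and less RNA per cell cannot be told apart. Calls below are Benjamini-Hochberg adjusted p under 0.05 from limma on log2(FPKM + 1), among the 12127 genes that reached 1 FPKM in 3 or more libraries. A gene under 1 FPKM in all libraries of one population can enter this test only through the other, which fixes its direction. By this test 39.2% of all genes differed, 20.5% higher and 18.7% lower in SP. Calls were thus higher in SP in 52.3% of cases, and in 68.1% after rescaling each library to the same sum, which moved the median gene to a log2 fold change of 0.20.

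TLR4 was the most abundant family member in all 6 libraries and was higher in SP. Its level was 60.3, 33.2 and 36.7 FPKM in SP replicates 1 to 3, against 7.21, 10.1 and 30.0 FPKM in MP replicates 1 to 3. The groups did not overlap, and MP replicate 3 lay close to SP. Within each library TLR4 exceeded 91.1%, 87.1% and 89.1% of the genes above 0 in SP and 66.0%, 72.1% and 85.8% in MP. TLR4 averaged 43.4 ± 14.8 FPKM in SP, against 15.8 ± 12.4 FPKM in MP (± SD, n = 3 libraries a group; log2 fold change 1.60 with SE 0.50, limma adjusted p = 0.0366). The exact permutation test (two-sided, 3 against 3) had p = 0.1, the smallest it allows. The call held in 10 of 18 alternatives (adjusted p from 0.00502 to 0.238). It was lost without SP replicates 1, 2 or 3 (limma adjusted p = 0.115, 0.0618 and 0.0742) without MP replicates 1 or 2 (0.106 and 0.107) and with no filter on low values (0.0829), whereas leaving out MP replicate 3 raised the log2 fold change to 2.17 (0.00502). TLR4 lies on chromosome 8 from 107057826 to 107068842 in build ARS-UCD1.2, first to last base with introns included.

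**Figure D1:**
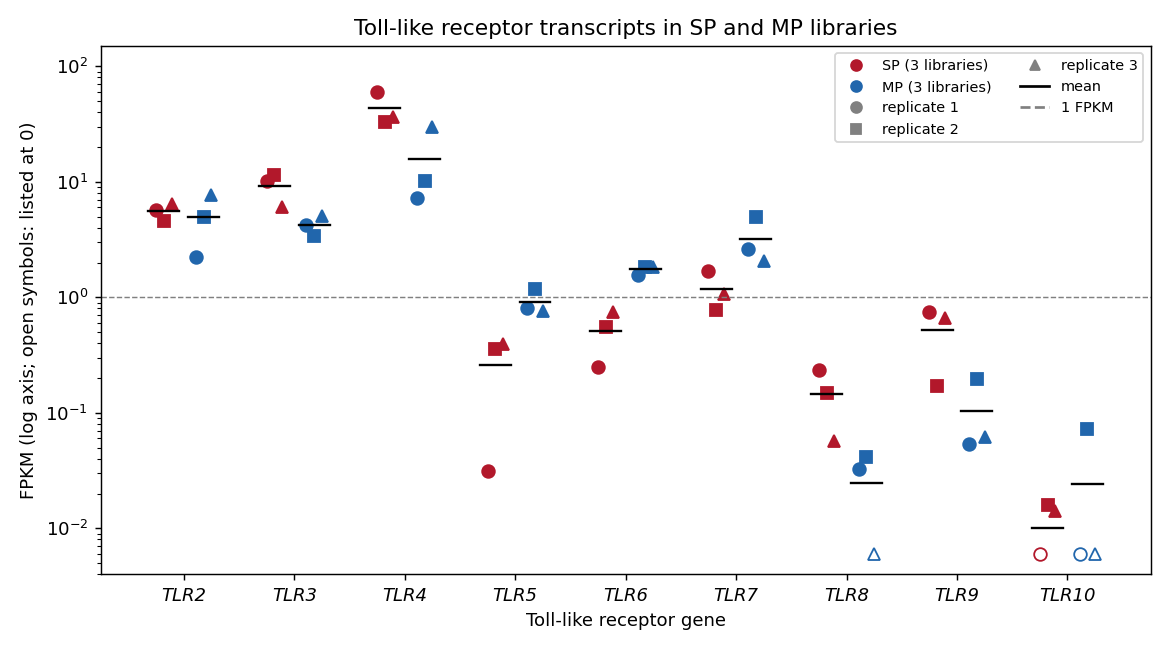
FPKM of each Toll-like receptor gene (log axis) in the 3 SP and the 3 MP libraries; bars are means, shapes are replicates and open symbols at the bottom are values listed at 0. TLR3, TLR4 and TLR8 lie higher in SP and TLR5, TLR6 and TLR7 higher in MP without overlap, while TLR2 overlaps.

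Of the 12 endothelial markers 11 rose like TLR4, and CLDN5 did not pass (35.8, 28.1 and 20.7 FPKM in SP, against 8.52, 46.0 and 81.8 FPKM in MP). All 12 were above 0 in both populations, their summed level ran from 1413 to 2149.85 FPKM in SP and from 135 to 819.6 FPKM in MP, and MP replicate 3 was again nearest to SP. CDH5, the defining adhesion molecule of endothelium, measured 177, 134 and 132 FPKM in SP replicates 1 to 3, against 6.81, 18.5 and 51.1 FPKM in MP replicates 1 to 3. The ratio of TLR4 to CDH5 was 0.340, 0.247 and 0.278 in SP and 1.06, 0.547 and 0.587 in MP, so TLR4 differed less between the populations than CDH5 did. Their part in the result was not tested.

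LY96 went the opposite way to TLR4, and CD14 did not pass. LY96, also called MD-2, which holds the lipid part of lipopolysaccharide in the receptor complex, fell. It had 22.4, 17.0 and 21.7 FPKM in SP replicates 1 to 3, against 87.9, 76.9 and 59.1 FPKM in MP replicates 1 to 3. The groups lay far apart, and LY96 had log2 fold change −1.81 with SE 0.24 (limma adjusted p = 0.00276). CD14, which hands lipopolysaccharide to the complex and was named here after its values were seen, was at 105, 101 and 86.9 FPKM in SP, against 38.9, 48.8 and 103.5 FPKM in MP, where MP replicate 3 lay within the SP range. It did not pass (log2 fold change 0.73, 95% interval −0.11 to 1.57, limma adjusted p = 0.1403). The ratio of TLR4 to LY96, also computed after the values were seen and given without a test, was 2.69, 1.95 and 1.69 in SP replicates 1 to 3, against 0.0820, 0.132 and 0.507 in MP replicates 1 to 3. TLR4 thus had the higher FPKM in every SP library and LY96 in every MP library. Of 5 tested co-receptors and ligand-binding partners 3 fell, against 18.7% of all tested genes, none rose and 2 did not pass (median log2 fold change −1.81, against 0.0075 over all genes). The others that fell were LY86 (−2.63), the partner of the orphan receptor CD180, and the scavenger receptor CD36 (−1.93). CD36 was under 1 FPKM in every SP library, so the filter fixed its direction. HMGB1, a nuclear protein that can act as a danger signal, did not pass (−0.45, limma adjusted p = 0.156). LBP and CD180 were under 1 FPKM in all libraries.

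**Figure D2:**
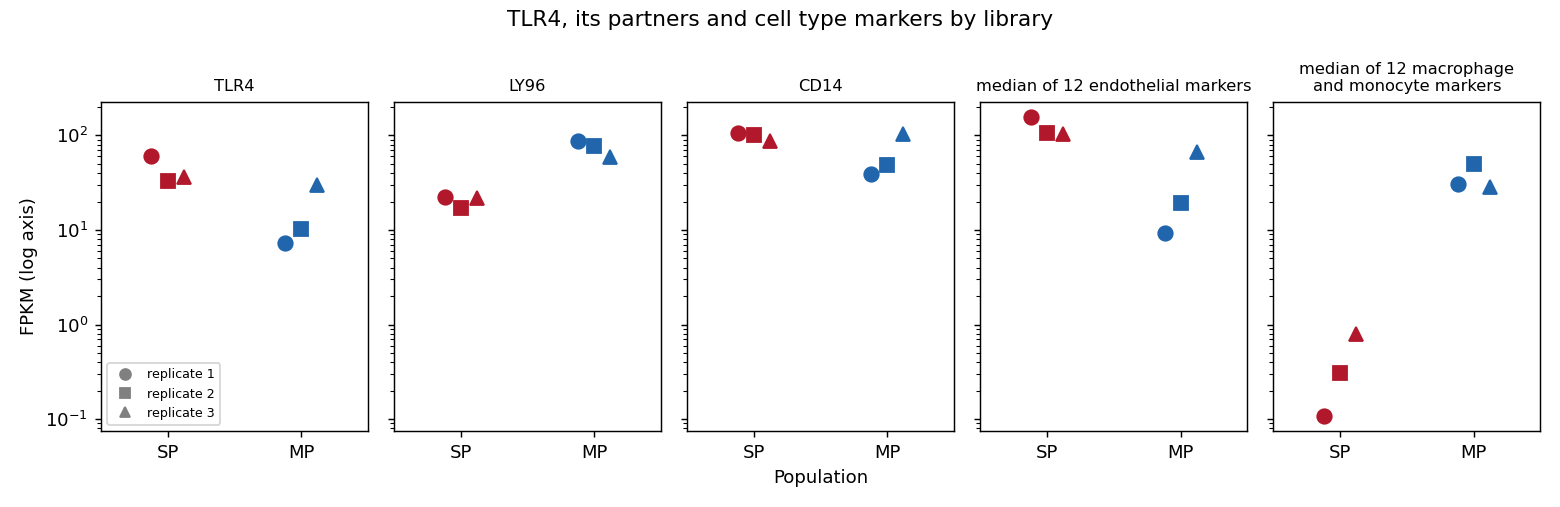
FPKM (log axis) of TLR4, LY96 and CD14 and the median of 12 endothelial and of 12 macrophage and monocyte markers in each library, SP on the left and MP on the right of each panel; shapes are replicates. LY96 is lower in all SP libraries, and MP replicate 3 is nearest to SP for TLR4 and the endothelial markers.

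TLR3, the endosomal receptor for double-stranded RNA, was also higher in SP. It had 10.1, 11.4 and 6.03 FPKM in SP replicates 1 to 3, against 4.26, 3.37 and 5.08 FPKM in MP replicates 1 to 3. All SP values exceeded all MP values, by a narrow margin between SP replicate 3 and MP replicate 3. TLR3 averaged 9.16 ± 2.79 FPKM in SP, against 4.24 ± 0.85 FPKM in MP (± SD, n = 3 libraries a group; log2 fold change 0.93 with SE 0.29, limma adjusted p = 0.0362, exact two-sided permutation p = 0.1). The call held in 10 of 18 alternatives (adjusted p from 0.0139 to 0.247). It was lost without SP replicates 1 or 2 (limma adjusted p = 0.108 and 0.113) or MP replicates 1 or 2 (0.0801 and 0.108), with no filter on low values (0.0696) and with the replicate number as a block (0.0571). TICAM1, the adaptor known as TRIF on which TLR3 depends, was at 33.1, 12.1 and 19.2 FPKM in SP, against 3.69, 3.60 and 9.72 FPKM in MP. The groups did not overlap and TICAM1 rose (log2 fold change 1.76 with SE 0.45, limma adjusted p = 0.0203). Without SP replicates 1 or 3 or MP replicates 1 or 2 it did not pass (limma adjusted p from 0.0539 to 0.0679), nor with no filter on low values (0.0515), and the call held in 11 of 18 alternatives. TLR3 lies on chromosome 27, from 16176313 to 16187575.

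TLR2 did not differ detectably and its partner TLR6 was low throughout. TLR2, on chromosome 17 from 3953807 to 3990089, measured 5.70, 4.60 and 6.40 FPKM in SP replicates 1 to 3, against 2.23, 5.00 and 7.76 FPKM in MP replicates 1 to 3. The MP values spanned the SP range. The log2 fold change was 0.24 with a 95% interval from −0.62 to 1.10 (limma adjusted p = 0.631), and it turned to −0.15 without MP replicate 1. TLR6, on chromosome 6 from 58050661 to 58091639, was at 0.250, 0.552 and 0.739 FPKM in SP, against 1.57, 1.81 and 1.84 FPKM in MP. Every SP library was under 1 FPKM, so TLR6 could be tested only because all MP values reached 1, and the filter fixed its direction. It passed as lower in SP (log2 fold change −0.87 ± 0.21 SE, limma adjusted p = 0.0157). With no filter on low values it also passed (limma adjusted p = 0.0279), and without SP replicate 1 it did not (0.0568). TLR6 and TLR10 are neighbours with related sequences, and how reads shared between them were split is not given in the sources used here. TLR1 has no row and is listed as a synonym of both, so whether the TLR6 values include TLR1 is not known.

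TLR7, on chromosome X from 130768542 to 130787093, was lower in SP at the edge of the threshold. It had 1.69, 0.783 and 1.07 FPKM in SP replicates 1 to 3, against 2.61, 4.96 and 2.05 FPKM in MP replicates 1 to 3. The groups did not overlap, although SP replicate 1 came close to MP replicate 3. It had log2 fold change −0.91 with SE 0.31 (limma adjusted p = 0.0489), and the call was lost in 17 of 18 alternatives (adjusted p from 0.0322 to 0.310). Leaving out any single library other than MP replicate 3 was enough to lose it (limma adjusted p from 0.0637 to 0.142). Stromal fibroblast markers were lower in the same libraries, beside TLR6 as well as TLR7 (summed 288 to 484 FPKM in SP and 3092 to 11340 FPKM in MP). Macrophage and monocyte markers were lower there too. None of the 12 was at 0 in all SP libraries, and their summed level ran from 23.4 to 40.2 FPKM in SP and from 635 to 1128 FPKM in MP, and the leukocyte marker PTPRC was at 0.0370, 0.0232 and 0.153 FPKM in SP, against 2.01, 5.83 and 1.28 FPKM in MP. The receptor CSF1R of these cells was at or below 0.0916 FPKM in SP, against 5.68 to 9.23 FPKM in MP. CD68, which did not pass, was at 34.3, 15.7 and 17.4 FPKM in SP, against 31.3, 47.5 and 20.96 FPKM in MP. The part of these markers in the result was not tested.

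The remaining members were near 0 and below the filter. TLR5, whose locus on chromosome 16 from 26601164 to 26603747 is the shortest of the family, measured 0.0315, 0.355 and 0.398 FPKM in SP replicates 1 to 3, against 0.814, 1.17 and 0.761 FPKM in MP replicates 1 to 3. The groups did not overlap. If fragments were counted whole, values of a gene near 0 are whole multiples of what a single fragment is worth. After allowing for depth those of TLR5 correspond to 1, 18 and 23 fragments in SP and 60, 118 and 48 fragments in MP. Fragment numbers here and below are the smallest that fit among the steps tried. In the fit with no filter TLR5 passed as lower in SP (log2 fold change −0.61, limma adjusted p = 0.0484), where 18.8% of all genes passed.

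TLR8, TLR9 and TLR10 were lower still in most libraries and none passed. TLR9, on chromosome 22 from 48676670 to 48680933, was at 0.739, 0.170 and 0.664 FPKM in SP, against 0.0532, 0.194 and 0.0621 FPKM in MP. SP replicates 1 and 3 were high, and SP replicate 2 lay under MP replicate 2. The values correspond to 30, 11 and 49 fragments in SP replicates 1 to 3, against 5, 25 and 5 fragments in MP replicates 1 to 3, although MP was sequenced more deeply. With no filter TLR9 did not pass (log2 fold change 0.45, limma adjusted p = 0.106). TLR8, on chromosome X from 130728235 to 130745827, was at 0.236, 0.147 and 0.0575 FPKM in SP, against 0.0323, 0.0412 and 0 FPKM in MP. The groups did not overlap, but with no filter TLR8 did not pass either (limma adjusted p = 0.132). Its values did not fall on whole multiples of any step tried, so no number of fragments is given. TLR10, on chromosome 6 from 58034097 to 58041090, was listed at 0 in SP replicate 1 and in MP replicates 1 and 3, and corresponds to 1 fragment in each of SP replicates 2 and 3 and to 9 fragments in MP replicate 2. A value listed at 0 can also be a failed estimate. At this depth no difference in TLR10 could be detected. These fragment numbers carry counting error, and a value of 1 to 5 fragments fixes a level only loosely.

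Among the 9 members with a row, 6 had SP and MP values that did not overlap, against 40.3% of all genes above 0 in any library. Of the 5 tested, 4 did not overlap, against 54.8% of all tested genes, and 4 passed, against 39.2%: TLR3 and TLR4 higher (20.5% of all) and TLR6 and TLR7 lower in SP (18.7%), with the direction of TLR6 fixed by the filter.

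The members were also set against each other within each library, first as shares, in which the scaling between libraries plays no part. TLR4 made up 76.3%, 64.8% and 70.5% of the summed Toll-like receptor FPKM in SP replicates 1 to 3, against 38.4%, 37.9% and 63.1% in MP replicates 1 to 3. TLR7 made up 2.14%, 1.53% and 2.06% in SP, against 13.9%, 18.5% and 4.31% in MP. TLR6 made up 0.317%, 1.08% and 1.42% in SP, against 8.35%, 6.78% and 3.87% in MP. None of these shares overlapped between the populations (exact two-sided permutation p = 0.1 each, the smallest possible), nor did that of TLR5. Those of TLR2, TLR3, TLR8, TLR9 and TLR10 overlapped, as did that of the endosomal members together. Shares of a library add up to the whole, so a larger share of TLR4 leaves less for the others. These are therefore not separate results. The summed level without TLR4 was 18.7, 17.9997 and 15.4 FPKM in SP and 11.6, 16.6 and 17.5 FPKM in MP, and these ranges overlapped.

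**Figure D3:**
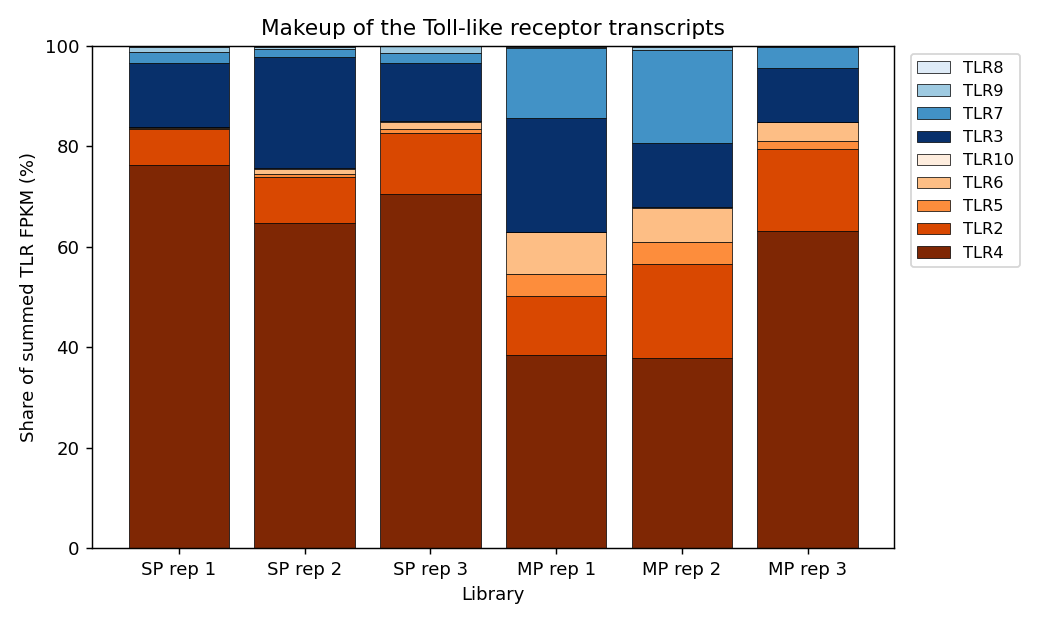
Share of each gene in the summed Toll-like receptor FPKM of a library (percent), SP libraries on the left and MP libraries on the right, with surface receptors in orange and endosomal receptors in blue. TLR4 takes 64.8% to 76.3% in SP and 37.9% to 63.1% in MP, and TLR6 and TLR7 take less in SP.

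Differences between members were tested on 10 log2 ratios of the 5 tested members, with p-values adjusted over the 10, ratios to TLR6 included. The ratios reuse the same members and libraries, so they are not separate results from the calls above or from each other. No share over other pairs of genes was computed. The ratios were of FPKM + 1, so those with a low member still depend on the scaling between libraries. The ratio of TLR4 to TLR7 was higher in SP by 2.51 ± 0.62 on the log2 scale (SE; moderated test on limma variances, adjusted p = 0.0114). TLR3 likewise was higher relative to TLR7 by 1.84 (limma-based adjusted p = 0.0114), and TLR4 relative to TLR2 by 1.36 (0.0155). TLR6 entered the test only through its MP values, which fixed its own direction and leaned every ratio to TLR6 toward SP without fixing it. The 3 such ratios that passed are therefore given as values: 2.47 for TLR4, 1.80 for TLR3 and 1.10 for TLR2. For TLR2 and TLR6, receptors that work as a pair, the FPKM ratios were 22.8, 8.32 and 8.66 in SP replicates 1 to 3, against 1.42, 2.76 and 4.22 in MP replicates 1 to 3. Whether the TLR6 values in these ratios include TLR1 is not known. The ratio of TLR4 to TLR2 passed in 9 of 13 alternatives (not without SP replicate 1, 0.0612, or MP replicate 2, 0.0601), and those of TLR4 and TLR3 to TLR7 in 11 of 13 each. The size depended on the pseudocount: with 0.1 and with 5, TLR3 to TLR7 had 2.39 and 0.995, TLR3 to TLR6 2.73 and 0.891, TLR4 to TLR6 3.35 and 1.63, and TLR2 to TLR6 1.98 and 0.405. The ratio of TLR4 to TLR3 did not pass (0.67, 95% interval −0.51 to 1.85), nor did those of TLR3 to TLR2, TLR2 to TLR7 and TLR7 to TLR6. The ratio of TLR2 to TLR7 (1.14, adjusted p = 0.0668) passed with the block (0.0420) and in 4 of 13 alternatives in all. With quantile normalization TLR4 to TLR7 had 2.33 and TLR2 to TLR6 had 0.93, where TLR2 to TLR6 did not pass (limma-based adjusted p = 0.0836). The exact permutation test of 3 against 3 cannot go below p = 0.1 for any ratio.

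The pathway genes were read from 8 lists. Of 102 listed genes 85 could be tested, of which 31 rose, 16 fell and 38 did not pass, where 20.5% of all tested genes rose and 18.7% fell. The share that fell was thus near that of all genes, and 5 of the 16 had a direction fixed by the filter. The median log2 fold change was 0.70, against 0.0075 over all genes. The calls number 47 in all, and the number fell to 29 without SP replicate 1, to 28 without MP replicate 1 and to 26 without MP replicate 2. Endothelial markers rose in the same libraries, as given above. Markers of stromal fibroblasts, macrophages, T and NK cells, mast cells, dendritic cells, B cells and pericytes fell there. The part of all these markers in the counts was not tested.

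Among 5 tested adaptors TICAM1 alone passed, as higher in SP, and 1 of 5 is near the 20.5% of all tested genes that rose. MYD88, used by most Toll-like receptors but not by TLR3, was at 38.04, 41.2 and 42.1 FPKM in SP, against 22.6, 42.1 and 40.2 FPKM in MP. MP replicate 1 stood low and the other libraries lay close together, and MYD88 did not pass (log2 fold change 0.25, limma adjusted p = 0.488). TIRAP, the bridging adaptor of TLR2 and TLR4, was at 7.43, 7.89 and 7.45 FPKM in SP, against 3.72, 4.49 and 6.35 FPKM in MP, with no overlap, but did not pass (limma adjusted p = 0.0925). TICAM2, which links TLR4 to TICAM1, and PIK3AP1, which links receptors to PI3 kinase, did not pass (log2 fold changes 0.23 and −0.22). SARM1, an inhibitory member of the adaptor family, was under 1 FPKM in every library.

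Of 11 genes of receptor trafficking and processing, 2 rose, near the 20.5% of all genes, and 4 fell, against 18.7% (median 0.11). CNPY3 and CNPY4, chaperones of Toll-like receptors, fell, as did CTSB, a protease of the endosome (log2 fold changes −0.97, −1.88 and −1.31; limma adjusted p = 0.0120, 0.00248 and 0.00954). UNC93B1, which carries the endosomal receptors out of the endoplasmic reticulum and was named after its values were seen, was at 10.6, 8.37 and 6.51 FPKM in SP, against 18.1, 21.4 and 11.3 FPKM in MP. It fell by 0.90 on the log2 scale (limma adjusted p = 0.0468). HSP90B1, the gp96 chaperone that Toll-like receptors need to fold, was likewise named after the fact and rose by 1.35 (limma adjusted p = 0.0148).

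Kinases and ubiquitin ligases rose in 8 of 16, against 20.5% of all genes, and fell in 1, against 18.7% (median 0.86). The genes with the smallest p were TAB2, an adaptor of the kinase TAK1, CHUK, the kinase IKK-alpha, and RIPK1 (log2 fold changes 1.58, 1.51 and 1.44; limma adjusted p = 0.00376, 0.00640 and 0.00955). IRAK4, the first kinase on MYD88, was the gene that fell (−0.76, limma adjusted p = 0.0330). Of 13 transcription factors 8 rose and 1 fell, against the same 20.5% and 18.7% (median 1.28). REL and NFKB2, subunits of NF-kappaB, and IRF1, an interferon regulatory factor, had log2 fold changes of 1.96, 1.54 and 2.19 (limma adjusted p = 0.0106, 0.0137 and 0.0112). IRF5, the gene that fell, was under 1 FPKM in every SP library, so its direction was fixed. Of 12 negative regulators 6 rose, against 20.5%, and none fell (median 1.19), among them CYLD and TNFAIP3, which take ubiquitin off the pathway, and NFKBIA, the inhibitor of NF-kappaB (1.54, 2.74 and 2.26; limma adjusted p = 0.00912, 0.00989 and 0.0143). The locus of NFKBIA overlaps that of RALGAPA1, at a mean of 8.32 FPKM in SP and 3.55 FPKM in MP.

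Cytokines and enzymes that the receptors induce fell in 6 of 15, against 18.7% of all genes, and rose in 1, against 20.5% (median −0.92). CXCL10 rose (log2 fold change 2.58, limma adjusted p = 0.0489) with overlap: 282, 542 and 65.5 FPKM in SP, against 12.2, 85.7 and 40.3 FPKM in MP. CCL2 and CCL5 did not pass (limma adjusted p = 0.185 and 0.0786), averaging 2779 and 1339 FPKM in SP, against 787 and 289 FPKM in MP. The summed level of the list was 8843, 5244 and 1545 FPKM in SP, against 1597, 1778 and 2097 FPKM in MP. CCL4, a chemokine of macrophages and lymphocytes, measured 1.99, 1.51 and 1.82 FPKM in SP replicates 1 to 3, against 167, 214 and 203 FPKM in MP replicates 1 to 3 (log2 fold change −6.13, limma adjusted p = 7.77e-06). CCL3 had −4.70 and TNF −2.72 (limma adjusted p = 0.000725 and 0.000714), with TNF under 1 FPKM in every SP library and its direction thus fixed, as was that of IL10, which also fell (−1.62). IL6, named after its values were seen, was at 1157, 437 and 588 FPKM in SP, against 218, 47.8 and 526 FPKM in MP, and did not pass (limma adjusted p = 0.0921). Other pattern recognition receptors rose in 5 of 8, against 20.5% of all genes, and fell in 1, against 18.7% (median 1.29). IFIH1 and DDX58, cytoplasmic sensors of viral RNA, had log2 fold changes of 2.75 and 1.75, and CLEC7A, the beta-glucan receptor, of −1.07 with its direction fixed by the filter (limma adjusted p = 0.00650, 0.00614 and 0.00570).

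**Figure D4:**
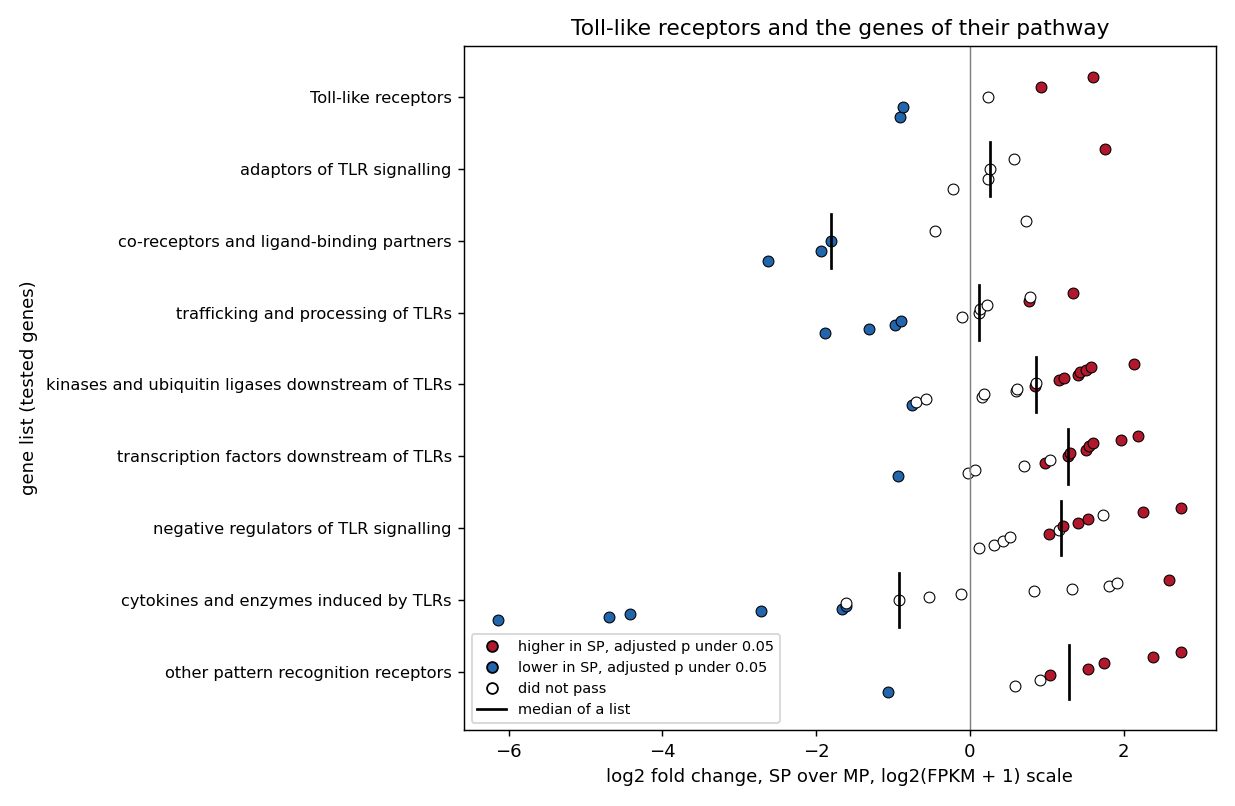
Log2 fold change of SP over MP on the log2(FPKM + 1) scale for each tested gene, by list; red and blue points passed (limma adjusted p under 0.05), white points did not, and the bar is the median of a list. The Toll-like receptors split to both sides, the NF-kappaB factors and inhibitors lie to the right and most called cytokines to the left.

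For the 3 most abundant tested members, the genes with the most similar profile over the 6 libraries were looked up by Pearson r on log2(FPKM + 1), as a description. The nearest to TLR4 were PDCL (r = 0.998), TMEM150C (0.997) and EXOC8 (0.997). Near to TLR3 were CBLN3 (0.996) and CENPN (0.994), and nearest to TLR2 were AP4S1 (0.981), MFSD9 (0.9796) and RHOG (0.979). Over 6 libraries a high r is not particular to the genes named. Of 12126 genes compared, 550 (4.54%) had r of at least 0.95 with TLR4, 110 (0.907%) with TLR3 and 13 (0.107%) with TLR2.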

How the data were processed

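Values are FPKM as deposited by the authors, 1 library per file; the column is named so per the file headers, and no scaling between libraries is recorded. Per the submitters' processing notes cutadapt 2.5, HISAT2 2.1.0 and build ARS-UCD1.2 were used; the kit marks strand per the labels, and the FPKM tool, the annotation and whether strand was used: not given in the sources used here. A row pooling unnamed genes (0.18% to 1.91% of a library's values) was left out. Listed starts count from 0 and were raised by 1. Groups and replicate numbers came from sample titles. The fit took genes reaching 1 FPKM in 3 or more libraries on log2(FPKM + 1), which understates changes of low genes, with limma 3.58.1 in R 4.3.3 (eBayes with trend, two-sided). For ratios of members the residual variance was squeezed toward the summed prior variances of both genes. Relative depth came from ratios of low values. Fragment numbers came from the largest step that makes all 6 values whole within 0.2. The steps tried were the smallest value divided by 1 to 5. The scripts were tested on simulated data. Members and lists were chosen with earlier results of these data known. Named were all members, all adaptors, up to 3 called genes per other list by smallest p, and the 3 nearest profiles, of which 1 is not reported here. STING1 was matched as TMEM173 through the gene table. Alternatives changed filter, pseudocount, scaling, trend, block and libraries. Protein and promoter sequences were not used here.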

Additional observations from a re-analysis of the deposited data

How the results depend on the processing

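No alternative of filter, pseudocount, scaling or trend turned the direction of a member, although filter and trend cannot change a fold change. The values of TLR3, TLR4, TLR6 and TLR7 did not overlap between populations. Leaving out libraries or changing the pseudocount therefore could not turn them. In the fits that left out libraries TLR2, which did not pass, turned. It had −0.15 without MP replicate 1 and −0.17 without replicate number 1 (up to 0.57 without MP replicate 3). The number of members passing was 4, and ran from 0 to 3 when libraries were left out. With no filter it was 2 of 9, TLR5 and TLR6, both lower in SP, where 18.8% of all genes passed. With the replicate number as a block it was also 2, but these were TLR4 and TLR6. Calls over all genes numbered 4759 and ran from 2421 to 4455 without 1 library and were 763, 351 and 2711 without replicate numbers 1, 2 and 3; those of pathway genes numbered 47 and ran from 26 to 49 without 1 library and down to 4, and those of the 10 ratios 6, of which 3 are ratios to TLR6, and from 0 to 7. With the block the ratio of TLR2 to TLR6 no longer passed (limma-based adjusted p = 0.0538). Fits without a whole replicate number have 2 libraries a group and little power. TLR6 fell under the filter when any 1 MP library was left out. The ratio of TLR7 to TLR6, which did not pass, turned from −0.04 to 0.34 with a pseudocount of 0.1, 0.12 and 0.09 without SP replicates 2 and 3, 0.22 without MP replicate 2 and 0.38 without replicate number 2 (lowest −0.33 without SP replicate 1 among single libraries). MYD88 turned to −0.025 without MP replicate 1 (highest 0.41), TICAM2 to −0.012 without SP replicate 3 (highest 0.41 without 1 library) and PIK3AP1 to 0.12 without SP replicate 1 and 0.053 without replicate number 1 (lowest −0.49); none passed. Rescaling to a sum of 1e+06 moved the median gene to 0.20 and the share of calls higher in SP to 68.1%, against 52.3%. The names of the deposited libraries share numbers across the populations, but no label says that a number is an animal. Same-numbered SP and MP libraries had deviations correlated at 0.10, 0.53 and −0.09 over tested genes, and not every library correlated best with its own number. Such deviations of few libraries cannot decide whether the numbers pair them, so the main fit was unpaired and the block is given beside it. With the block TLR3 and TLR7 did not pass (limma adjusted p = 0.0571 and 0.0674), while TLR4 and TLR6 did (0.0464 and 0.0247). The cause of these changes was not tested.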
